A study of Homo sapiens with 42 samples.

Results

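MV4;11 cells treated with PFI-6 at 100 nM for 24 h were compared with MV4;11 cells given DMSO, the solvent control, for 24 h, by RNA sequencing. There were 3 libraries in each group, so 6 in all, taken by their compound and time labels from 42 libraries in the whole series. MV4;11 is a human myeloid leukaemia line that carries a fusion of MLL (KMT2A) with AF4, and its genotype is labelled wild type, so no gene was edited in any group used here. The series is about MS41, a degrader of ENL. The other groups used for comparison were PFI-6 at 100 nM for 6 h, DMSO for 6 h, and MS41 and MS41N at 100 nM for 24 h, with 3 libraries each. The role of MS41N is not given in the labels, and the treatment protocol spells it MS47N where the sample titles write MS41N. All libraries were made from polyadenylated RNA of 1 cell line. The labels do not say whether replicates were separate cultures, so p-values measure the spread between these libraries, which may be technical.

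ENL, the product of MLLT1, and its relative AF9, the product of MLLT3, read acetylated lysines on histone tails with a pocket called the YEATS domain. ENL brings the super elongation complex, which releases paused RNA polymerase II, to active genes, and MLL-fusion leukaemias need it to keep genes such as HOXA9, HOXA10, MEIS1 and MYC transcribed. PFI-6 is an inhibitor that occupies the YEATS domains of ENL and AF9 and so competes with acetylated histones, while a degrader removes the protein. When the fusion programme is lost, leukaemia cells of this kind are known to stop dividing and to switch on genes of maturing monocytes and granulocytes.

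After 24 h of PFI-6 the transcriptome differed from DMSO by small amounts. The immediate early genes JUN and FOS and the myeloid maturation genes LSP1, CYBB and CD36 rose, by 0.27 to 0.61 on the log2 scale in these 5 genes. The JUN and CYBB calls were kept in only 1 of 6 fits with a library left out and the FOS call in 2 of 6. Those of LSP1 and CD36 were kept in all 6. CTSG of neutrophil granules, the amino acid transporter genes SLC7A5 and SLC3A2 and the cytokine gene TNF fell, while HOXA9, MEIS1 and MYB did not pass the test. With edgeR's quasi-likelihood test and Benjamini-Hochberg adjustment, 2806 of 22711 genes tested (12.4%) had an adjusted p below 0.05, 1266 higher (5.57%) and 1540 lower (6.78%). These calls followed the base composition of the genes. Among 11766 genes with an average log2 CPM (a gene's counts scaled to a common library total) of at least 1, the log2 fold change and exonic GC content had a Pearson correlation across genes of -0.70 and a Spearman correlation of -0.717; genes share their libraries and are not independent replicates. With genes cut into 10 equal groups by GC content, the group poorest in GC had a median log2 fold change of 0.102 and the richest one of -0.185.

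The GC trend was measured in each library as the fitted log2 level at 60% GC minus that at 40% GC, relative to the mean of all 24 MV4;11 compound libraries. It was -0.143, -0.188 and -0.105 in the PFI-6 24 h libraries, against 0.0225, 0.0253 and 0.129 in the DMSO 24 h libraries. The PFI-6 24 h libraries were the lowest 3 of the 24, and DMSO 24 h replicate 3 was the highest. Whether the trend arose in the cells or in library preparation was not tested. A per-library correction for it left a Spearman correlation of -0.0365 with GC content and left 457 genes called (2.01%), 295 higher (1.30%) and 162 lower (0.713%). Genes called with the same sign in both fits, with and without the correction, numbered 354 (1.56%), 225 higher (0.991%) and 129 lower (0.568%). Their median average log2 CPM was 5.73 for those higher and 5.85 for those lower, against 1.34 for all genes tested. Shares of all genes given below thus include many genes of low level, and differences in level between a list and all genes were not allowed for. Unless another fit is named, fold changes, intervals, p-values and CPM below are from the GC-corrected fit, and a gene is said to have risen or fallen if it was called in both fits. Leaving out any 1 of the 6 libraries left 147 to 225 genes called in both fits, with the fewest without PFI-6 replicate 2 and the most without PFI-6 replicate 3.

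**Figure D1:**
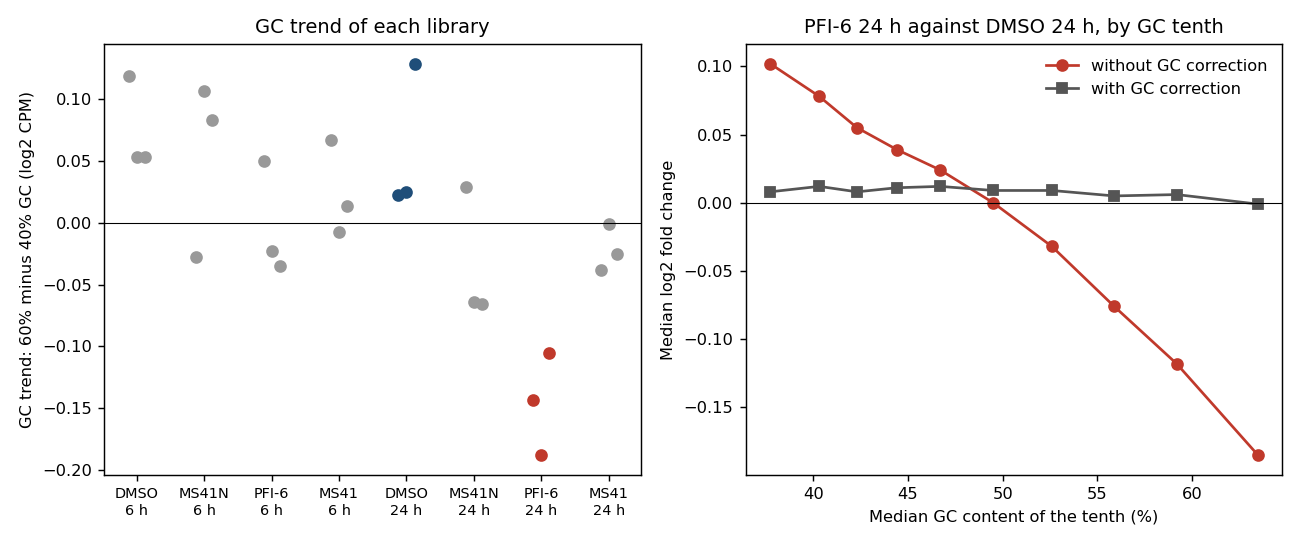
Left, the GC trend of each of the 24 MV4;11 compound libraries (log2 level at 60% GC minus that at 40% GC, vertical axis) by group. Each point is 1 library; PFI-6 24 h (red) spans -0.188 to -0.105 and DMSO 24 h (blue) 0.0225 to 0.129. Right, the median log2 fold change of PFI-6 24 h against DMSO 24 h in 10 equal groups of genes by GC content, falling from 0.102 to -0.185 without the correction (red) and between -0.001 and 0.012 with it (grey).

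The changes that held in both fits were small, with a median absolute log2 fold change of 0.15, and 11 genes rose and 10 fell by at least 1.5-fold in both. None of the 30 genes ranked below was among them, so each missed the level or the separation of libraries required for that ranking. Of the 225 genes that rose, 208 were protein coding. Of the 129 that fell, 106 were protein coding and 15 were processed pseudogenes, whose reads cannot be told apart from those of their parent genes with certainty. The genes that rose had a median exonic length of 4975 bases and a median GC content of 45.2%, against 2072 bases and 52.3% for those that fell and 2463 bases and 48.2% for all genes tested. Genes with an average log2 CPM of at least 1 had a median of 3519 bases and 48.1% GC. So the genes described here leaned by length and GC, and the Spearman correlation of log2 fold change with log length was 0.199 after the GC correction. The rule also required a call without the correction, which favours GC-poor genes that rose and GC-rich genes that fell. Their GC difference therefore does not measure what the correction left. The share that length has in these changes was not tested further than by a joint GC and length correction, under which 295 genes were called in both fits, 273 of them among the 354.

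Immediate early genes are switched on within minutes of a growth or stress signal. Of 29 measured genes of immediate early response and MAPK feedback, 3 rose and none fell, against 0.991% of all genes tested that rose, and the median log2 fold change was 0.05 against 0.01 over all genes. JUN, on chromosome 1 (GRCh38, positions 58780788 to 58784327, minus strand), encodes a subunit of the AP-1 transcription factor. Its level was 14.6, 14.8 and 14.9 CPM with PFI-6 and 8.46, 11.1 and 9.48 CPM with DMSO. All 3 PFI-6 libraries lay above all 3 DMSO libraries and close together, while the DMSO libraries were spread. The log2 fold change was 0.61 ± 0.14 (SE, n = 3 against 3; 95% interval 0.31 to 0.90; edgeR adjusted p = 0.033). FOS (chromosome 14, 75278774 to 75282230, plus strand), the partner of JUN in AP-1, measured 378, 395 and 369 CPM with PFI-6 and 258, 298 and 275 CPM with DMSO. Again the groups did not overlap, and the log2 fold change was 0.46 ± 0.09 (SE; edgeR adjusted p = 0.014). KLF6, a zinc finger factor induced by the same signals, rose by 0.28 ± 0.07 (SE; edgeR adjusted p = 0.040). These 3 calls rested on few libraries. With 1 library left out, JUN was called in both fits in 1 of 6 fits, KLF6 in 1 of 6 and FOS in 2 of 6, with GC-corrected log2 fold changes of 0.52 to 0.71 for JUN, 0.20 to 0.35 for KLF6 and 0.41 to 0.51 for FOS. None of the 3 was called without DMSO replicate 1, without DMSO replicate 3, without PFI-6 replicate 1 or without PFI-6 replicate 2. The KLF6 call was also lost with only the groups compared fitted and with the GC and length correction.

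The 250 bases before the RefSeq start sites of JUN, FOS and CYBB, a myeloid gene described below, are shown because JUN and FOS were the most changed immediate early genes called and CYBB is a marker of myeloid maturation that also rose. Sequences are from RefSeq on GRCh38.p14, 5′ to 3′ on the strand of the gene. JUN is at chr1:58784048-58784297 on the minus strand, FOS at chr14:75278578-75278827 on the plus strand and CYBB at chrX:37779809-37780058 on the plus strand. Capitals mark matches on either strand to 4 motifs. TGANNTCA is a pattern that the full cyclic AMP response element fits and the shorter standard AP-1 site does not. TGACGT is the core of the cyclic AMP element and overlaps the first motif when followed by CA. GAGGAA is the core bound by the myeloid factor PU.1, and CACGTG is an E-box. The motifs were chosen after the sequences were seen.
JUN: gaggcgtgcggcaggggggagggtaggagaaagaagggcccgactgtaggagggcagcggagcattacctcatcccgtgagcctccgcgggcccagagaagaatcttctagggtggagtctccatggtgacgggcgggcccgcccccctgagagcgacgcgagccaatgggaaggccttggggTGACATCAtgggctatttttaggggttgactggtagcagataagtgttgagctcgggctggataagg
FOS: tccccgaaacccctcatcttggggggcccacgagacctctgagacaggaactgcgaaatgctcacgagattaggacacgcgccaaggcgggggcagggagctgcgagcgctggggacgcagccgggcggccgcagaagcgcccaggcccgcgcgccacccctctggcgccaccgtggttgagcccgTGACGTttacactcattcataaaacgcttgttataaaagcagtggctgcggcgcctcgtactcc
CYBB: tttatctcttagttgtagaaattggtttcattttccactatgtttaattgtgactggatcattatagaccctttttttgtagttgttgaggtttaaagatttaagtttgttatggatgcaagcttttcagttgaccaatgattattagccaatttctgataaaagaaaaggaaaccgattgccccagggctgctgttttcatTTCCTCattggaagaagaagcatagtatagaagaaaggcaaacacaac
The match begins at position -67 from the start in JUN, -64 in FOS and -48 in CYBB, where the motif is on the other strand. Of 27305 RefSeq promoters of the same length, 10.4% held TGANNTCA, 7.42% TGACGT, 23.4% GAGGAA and 6.49% CACGTG. Among the 15 genes that rose named first by rank below, 12 had a promoter entry, and 2, 1, 5 and 0 of them held the 4 motifs in that order. Among the 15 that fell, 7 had one, and 3, 2, 1 and 0 held them. The 5 that rose and held GAGGAA were ANXA1, BASP1, CD101, CYBB and IPCEF1. Of these, CD101, CYBB and IPCEF1 reached the level required for ranking through libraries such as those of MS41. These counts are therefore no test of the motifs. A match of letters describes the window and shows no binding.

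Some genes of maturing myeloid cells rose. Of 42 listed myeloid maturation genes 36 were measured, and 7 of these rose and none fell in both fits, against 0.991% of all genes tested that rose. The median log2 fold change of the 36 was 0.13, and 30 were above 0. The groups did not overlap in 16 of the 36, against 18.7% of all genes tested. In bulk RNA, a change in the share of cells of a kind and a change in RNA per cell cannot be told apart. LSP1 (chromosome 11, 1852970 to 1892267, plus strand), an actin-binding protein of leukocytes, measured 5.65, 5.37 and 5.16 CPM with PFI-6 and 3.56, 3.96 and 3.69 CPM with DMSO. Every PFI-6 library was above every DMSO library, and the log2 fold change was 0.53 ± 0.07 (SE; 95% interval 0.38 to 0.68; edgeR adjusted p = 4e-06). LSP1 is rich in GC (62.4%), so it rose against the trend of the uncorrected libraries, where its log2 fold change was 0.36. CD36 (chromosome 7, 80369575 to 80679277, plus strand), a scavenger receptor for lipids on monocytes, measured 39.9, 38.6 and 38.9 CPM with PFI-6 and 32.4, 32.1 and 33.1 CPM with DMSO. Both groups were tight and apart, with a log2 fold change of 0.27 ± 0.03 (SE; edgeR adjusted p = 2.7e-06). LSP1 and CD36 were called in both fits with any 1 of the 6 libraries left out.

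CYBB (chromosome X, 37780011 to 37813461, plus strand) encodes the catalytic subunit of the phagocyte NADPH oxidase, which makes the oxidative burst. Its level was low, 1.89, 2.16 and 2.1 CPM with PFI-6 and 1.64, 1.63 and 1.48 CPM with DMSO. The groups did not overlap, and the log2 fold change was 0.37 ± 0.10 (SE, edgeR adjusted p = 0.026). The call was kept in only 1 of the 6 fits with a library left out, the one without PFI-6 replicate 1 (0.33 to 0.43 over the 6). It was also lost with only the groups compared fitted. TLR1, a receptor for bacterial lipopeptides, rose by 0.27 ± 0.06 (SE; edgeR adjusted p = 0.0039), a call lost without DMSO replicate 2 (0.23 to 0.31 over the 6). KLF4, a factor that drives monocyte differentiation, rose by 0.48 ± 0.11 (SE; edgeR adjusted p = 0.012), lost without PFI-6 replicate 1 or 3 or DMSO replicate 1 or 3 (0.35 to 0.61), and CTSS, a lysosomal protease, by 0.13 ± 0.03 (SE; edgeR adjusted p = 0.0098). CTSS and the next 5 members are named after their values were seen. LYZ, which encodes lysozyme, had a log2 fold change of -0.05 and TLR2, a receptor of bacterial lipoproteins, one of -0.06, and neither passed the test. The surface integrins ITGAM and ITGAX, at 1.37 and 1.86 CPM with PFI-6 and 1.01 and 1.41 CPM with DMSO before the correction, had log2 fold changes of 0.50 and 0.49 that did not pass (edgeR adjusted p = 0.089 and 0.060). CSF1R, the receptor of macrophage growth factor, was called with the correction (0.18, edgeR adjusted p = 0.0063) but not without it (0.07, edgeR adjusted p = 0.33). The count of 7 became 3 to 6 with 1 library left out (3 without DMSO replicate 3, 4 without DMSO replicate 2).

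Genes called in both fits were kept if their average log2 CPM over all 24 libraries, MS41 libraries included, was at least 3. Their 3 PFI-6 and 3 DMSO 24 h libraries also had to lie apart, so this separation was set by the rule. The genes kept were ranked by the smaller of their corrected and uncorrected changes, and the 15 highest were JUN, BASP1, CYBB, DAPP1, KCNQ3, LSP1, FOS, ANXA1, CD101, CACNA2D3, PIP4P2, MYOF, ZNF606, IPCEF1 and HDAC9. CYBB, LSP1, CD101, IPCEF1, KCNQ3 and MYOF were below 8 CPM in all 6 PFI-6 and DMSO 24 h libraries and reached that average through libraries where they were higher, such as those of MS41 24 h (means of 17.3 to 81.8 CPM). BASP1, a membrane and nuclear protein that can act as a corepressor, measured 11.4, 13.5 and 11.3 CPM with PFI-6 and 8.30, 9.19 and 9.11 CPM with DMSO (log2 fold change 0.44 ± 0.07, SE; edgeR adjusted p = 0.00015). DAPP1, an adaptor that binds phosphoinositides at the plasma membrane, measured 16.2, 15.9 and 15.7 CPM against 12.5, 13.1 and 11.7 CPM (0.36 ± 0.05, SE; edgeR adjusted p = 2e-05). ANXA1, a calcium-dependent phospholipid-binding protein that restrains inflammation, measured 27.5, 27.1 and 25.8 CPM against 19.5, 22.2 and 21.3 CPM (0.35 ± 0.05, SE; edgeR adjusted p = 2.7e-05). In these 3 genes and in CD101, an inhibitory receptor of myeloid cells (0.35 ± 0.06, SE; edgeR adjusted p = 0.00026), no left-out library removed the call. HDAC9, a histone deacetylase, rose by 0.29 ± 0.07 (SE; edgeR adjusted p = 0.013), a call lost without PFI-6 replicate 1 or DMSO replicate 3 (0.22 to 0.37 over the 6 fits). KCNQ3, a potassium channel subunit, and MYOF, a membrane repair protein, kept their calls in 3 and 2 of the 6 fits.

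Single genes of other groups moved the same way. HLA-DRA, the alpha chain of the MHC class II molecule HLA-DR, measured 26.7, 27.9 and 27.2 CPM with PFI-6 and 23.7, 23.5 and 22.9 CPM with DMSO (0.22 ± 0.05, SE; edgeR adjusted p = 0.0070), and it was the only 1 of 14 measured class II genes called in both fits; the call was lost without PFI-6 replicate 2 (0.21 to 0.24 over the 6 fits). KIT, the stem cell factor receptor, rose by 0.23 ± 0.05 (SE; edgeR adjusted p = 0.0075), a call lost without PFI-6 replicate 1 or 2 (0.19 to 0.27), and was the only 1 of 15 measured stem and progenitor genes to be called. PTPRC, which encodes CD45, rose by 0.16 ± 0.02 (SE; edgeR adjusted p = 2.7e-05). Among 44 interferon response genes, with 0.991% of all genes tested higher and 0.568% lower, 2 rose (IFIH1 by 0.20 and PARP14 by 0.12) and 1 fell (LGALS9 by 0.11), and each of these 3 calls was kept in at most 1 of 6 fits with a library left out. The IFIH1 and PARP14 calls were also lost under the GC and length correction, and the LGALS9 call without the filter on low counts. BCL6, a repressor among the 24 measured myeloid transcription factors, was at 1.23, 1.08 and 1.53 CPM with PFI-6 and 0.802, 0.762 and 0.963 CPM with DMSO (0.60 ± 0.17, SE, edgeR adjusted p = 0.050, below the threshold before rounding). Among the 6 fits with a library left out, its call was kept only without PFI-6 replicate 2 (0.45 to 0.71 over the 6 fits). It was also lost under DESeq2, with only the groups compared, with the GC and length correction and with the replicate block.

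**Figure D2:**
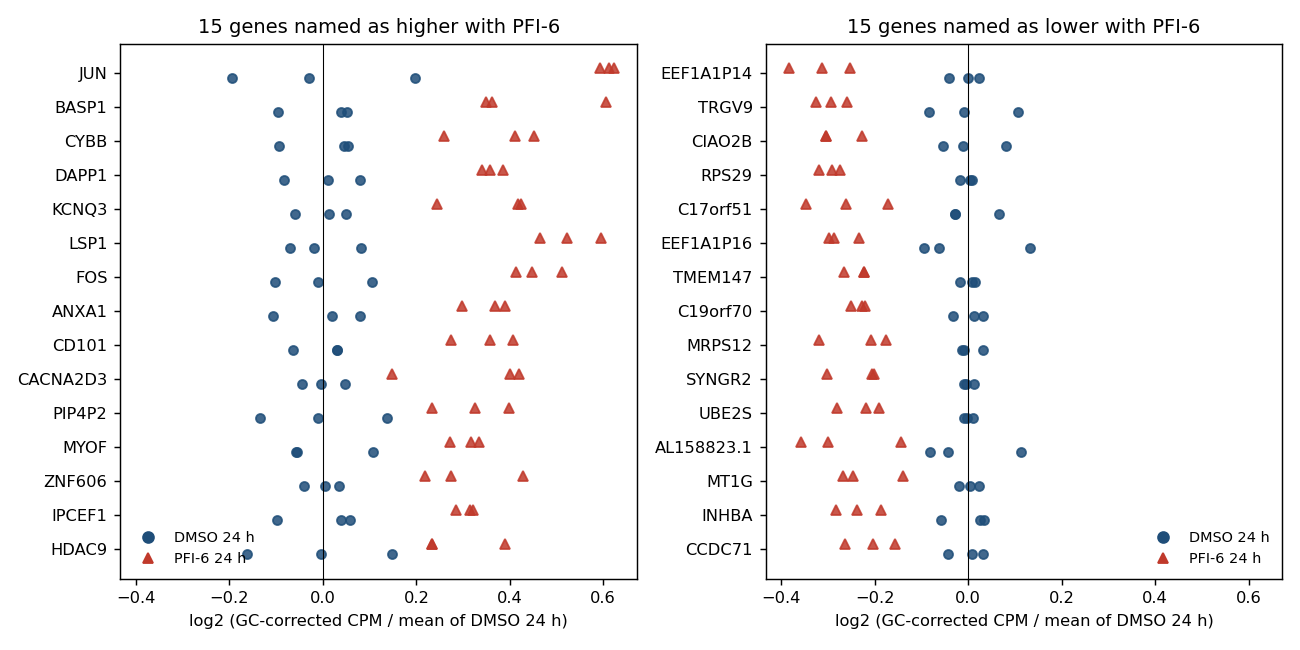
GC-corrected CPM of the 15 genes ranked first among those that rose (left) and the 15 among those that fell (right), of genes with an average log2 CPM of at least 3, in each library, as log2 of the value over the mean of the DMSO 24 h libraries. Red triangles are the 3 PFI-6 24 h libraries and blue circles the 3 DMSO 24 h libraries; the groups do not overlap in any of the 30 genes, which the rule for naming them required.

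TNF (chromosome 6, 31575567 to 31578336, plus strand), an inflammatory cytokine, was among the genes that fell. It measured 6.29, 5.40 and 5.75 CPM with PFI-6 and 9.15, 8.63 and 8.84 CPM with DMSO. The groups were far apart and each was narrow, and the log2 fold change was -0.61 ± 0.09 (SE; 95% interval -0.80 to -0.42; edgeR adjusted p = 2e-05). The call stood with any 1 library left out. TNF was the only 1 of 24 measured inflammatory NF-kB genes called in both fits, against 0.568% of all genes tested that fell. The median of that list was 0.00.

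Azurophil granules are the protease stores that granulocyte precursors build before they mature. Of 12 genes of these granules 2 fell and none rose, against 0.568% of all genes tested that fell. CTSG (chromosome 14, 24573522 to 24576260, minus strand), which encodes cathepsin G, measured 96.0, 95.8 and 94.7 CPM with PFI-6 and 110, 112 and 106 CPM with DMSO. No library overlapped, and the log2 fold change was -0.20 ± 0.03 (SE; edgeR adjusted p = 1.2e-05), kept with any library left out. ELANE, which encodes neutrophil elastase, fell by 0.12 (± 0.03, SE; edgeR adjusted p = 0.035), a call that each of the 6 left-out libraries removed. The median of the 12 genes was -0.05.

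Genes of the ATF4 response, which supplies amino acids and folding capacity under stress, fell in 5 of 31 measured members and rose in none, against 0.568% of all genes tested that fell, with a median of -0.05. ATF4 itself, the transcription factor, measured 203, 209 and 201 CPM with PFI-6 and 221, 222 and 216 CPM with DMSO (-0.11 ± 0.03, SE; edgeR adjusted p = 0.014). SLC7A5 (chromosome 16, 87830023 to 87869488, minus strand), a transporter of large neutral amino acids, measured 179, 180 and 184 CPM against 200, 203 and 200 CPM. In both genes all PFI-6 libraries were below all DMSO libraries, and for SLC7A5 the log2 fold change was -0.15 ± 0.02 (SE; edgeR adjusted p = 8.2e-05). SLC3A2, the heavy chain that carries SLC7A5 to the membrane, fell by 0.12 (± 0.03, SE; edgeR adjusted p = 0.0065). SHMT2, a mitochondrial enzyme of serine metabolism, and HERPUD1, of protein disposal at the endoplasmic reticulum, had -0.10 and -0.12 (edgeR adjusted p = 0.043 and 0.044). SLC7A5 and SLC3A2 kept their calls with any library left out, ATF4 in 2 of 6 such fits, and SHMT2 and HERPUD1 in none. RLE scaling in place of TMM left 3 members of the list called, and fitting only the groups compared gave 8, where 573 genes in all were called in both fits.

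Of 51 nuclear oxidative phosphorylation genes, which encode the respiratory chain and ATP synthase, 5 fell and none rose (median -0.05), against 0.568% of all genes tested that fell: ATP5MC1 and ATP5MC3 of the ATP synthase ring by 0.17 and 0.14, COX5B and COX7B of cytochrome oxidase by 0.14 and 0.18, and CYC1 of complex III by 0.11. A joint correction for GC and length left 2 members called, and leaving out 1 library left 1 to 6, with 1 without PFI-6 replicate 1 or 2 and 2 without DMSO replicate 1. The replicate block gave 8, and fitting only the groups compared gave 14, where 573 genes in all were called in both fits against 354. None of the 13 genes of the mitochondrial genome was called, and the share of counts from them was 4.92% to 6.17% in the PFI-6 libraries and 5.2% to 5.41% in the DMSO libraries. Of 72 cytosolic ribosomal protein genes 3 fell (median -0.04), against the same 0.568% of all genes, RPS29 by 0.30 (± 0.05, SE; edgeR adjusted p = 0.0070), RPS19 by 0.11 and RPL27A by 0.08. RPL27A lost its call with each library left out, and 8 of the 72 were called if the correction also removed the level difference between libraries. With only the groups compared fitted, 13 of the 72 were called, all lower. Ribosomal protein genes have many processed pseudogenes, so their counts are uncertain.

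The 15 genes ranked first among those that fell, by the same rule, were EEF1A1P14, TRGV9, CIAO2B, RPS29, C17orf51, EEF1A1P16, TMEM147, C19orf70, MRPS12, SYNGR2, UBE2S, AL158823.1, MT1G, INHBA and CCDC71. INHBA (chromosome 7, 41667168 to 41705834, minus strand), which encodes a subunit of activin, a secreted factor of the TGF-beta family, measured 65.5, 67.8 and 63.5 CPM with PFI-6 and 79.0, 78.6 and 74.1 CPM with DMSO (-0.24 ± 0.03, SE; edgeR adjusted p = 7.9e-06). TRGV9, a variable segment of the T cell receptor gamma locus, measured 13.2, 12.6 and 12.9 CPM against 17.0, 14.9 and 15.7 CPM (-0.30 ± 0.06, SE; edgeR adjusted p = 0.0032). UBE2S, which builds ubiquitin chains for the anaphase-promoting complex, measured 57.6, 54.1 and 56.5 CPM against 65.6, 65.3 and 66.2 CPM (-0.23 ± 0.04, SE; edgeR adjusted p = 0.00015). All 3 genes kept their calls with any library left out, as did RPS29, TMEM147, MRPS12, SYNGR2 and MT1G. Separate groups were required by the rule. EEF1A1P14 and EEF1A1P16 are pseudogenes of the elongation factor EEF1A1, and MT1G belongs to a metallothionein family of near-identical copies, so the origin of their counts is uncertain. Of the 30 genes named by the rule, 14 were called in both fits under each of 13 alternatives, 6 of which left out 1 library.

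Of 25 measured MLL fusion and ENL target genes 1 rose and 1 fell in both fits, against 0.991% and 0.568% of all genes tested, and their median was 0.01, equal to that of all genes. HOXA10 (chromosome 7, 27170591 to 27180261, minus strand), a homeobox factor of immature myeloid cells, measured 33.3, 31.6 and 32.6 CPM with PFI-6 and 37.1, 37.2 and 34.4 CPM with DMSO. The groups did not overlap, and the log2 fold change was -0.16 ± 0.04 (SE; 95% interval -0.25 to -0.06; edgeR adjusted p = 0.045); the call was kept only without DMSO replicate 3 among the 6 fits with a library left out (-0.19 to -0.14), and it was lost under RLE scaling. HOXA9, its neighbour and partner, measured 56.6, 55.4 and 54.4 CPM against 58.2, 58.5 and 57.6 CPM, lower in all 3 libraries but with a log2 fold change of -0.07 ± 0.03 that did not pass (SE; edgeR adjusted p = 0.39). MEIS1, the cofactor of HOXA9, had 0.00 ± 0.03 (SE). JMJD1C, a histone demethylase-family protein, rose by 0.11 ± 0.02 (SE; edgeR adjusted p = 0.0023) and kept its call with any library left out.

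MYC, the growth-driving transcription factor, measured 413, 419 and 410 CPM with PFI-6 and 448, 437 and 431 CPM with DMSO. The groups did not overlap. The log2 fold change was -0.17 without the GC correction (edgeR adjusted p = 0.00011) and -0.08 ± 0.03 with it (SE; edgeR adjusted p = 0.080), so MYC was not called in both fits. Of 50 MYC targets in ribosome and nucleotide synthesis 1 fell (GRWD1, a ribosome assembly factor, by 0.11, a call lost with each left-out library), against 0.568% of all genes tested. Without the correction 17 of the 50 were called lower, against 6.78% of all genes tested. With only the groups compared fitted, 7 of the 50 were called lower in both fits, where 573 genes in all were called in both. MYB, a progenitor transcription factor, had -0.02 ± 0.02 (SE), and CDKN1B, the cell cycle inhibitor p27, -0.01 ± 0.03 (SE).

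The targets of PFI-6 were expressed at different levels, and their transcripts do not check that the inhibitor acted on the proteins. MLLT1 measured 124, 128 and 125 CPM with PFI-6 and 125, 125 and 122 CPM with DMSO. These ranges overlap, and the log2 fold change was 0.02 (95% interval -0.03 to 0.07), while without the correction this gene of 63.4% GC was called lower at -0.16. MLLT3 was near 2 CPM in both groups, at 2.91, 1.68 and 1.77 CPM with PFI-6 and 2.01, 2.46 and 1.86 CPM with DMSO, and its interval was wide (-0.34 to 0.36). The other genes with a YEATS domain, YEATS2 and YEATS4, had 0.04 and -0.01. None of the 4 YEATS domain genes and none of 25 genes of the super elongation complex and its partners was called in both fits. Only 1.56% of all genes tested were, so the absence of calls says little about lists this short. Without the correction 5 of the 25 were called higher and 3 lower, against 5.57% and 6.78% of all genes tested. With only the groups compared fitted, 2 of the 25 were called in both fits.

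Cell division genes showed no shared change, where 0.991% of all genes tested rose and 0.568% fell. None of 43 S phase genes was called in both fits, 1 of 36 mitosis genes fell (UBE2C, a ubiquitin-conjugating enzyme, by 0.14, ± 0.03, SE; edgeR adjusted p = 0.013; lost without PFI-6 replicate 1 or 2 or DMSO replicate 3), and both lists had a median of 0.00. CDK4, the kinase of the G1 phase, fell by 0.12 (± 0.03, SE; edgeR adjusted p = 0.0080) and kept its call with any library left out. Of 30 p53 targets 1 rose (XPC, a DNA repair factor, by 0.15, lost without PFI-6 replicate 1 or 2 or DMSO replicate 1), and none of the 15 BCL2 family genes was called. In the remaining lists HIST1H4C rose from 0.564, 0.465 and 0.459 CPM to 0.861, 0.984 and 1.03 CPM (0.95 ± 0.26, SE; edgeR adjusted p = 0.042, lost with each left-out library) among 20 replication-dependent histone genes, whose transcripts mostly lack poly(A) tails; GPI fell by 0.09 among 28 hypoxia and glycolysis genes and SCD by 0.08 among 29 sterol and fatty acid genes. The GPI call was kept only without DMSO replicate 3 among the 6 fits with a library left out (-0.10 to -0.08), and the SCD call in none of them (-0.08 to -0.07), nor under RLE scaling.

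**Figure D3:**
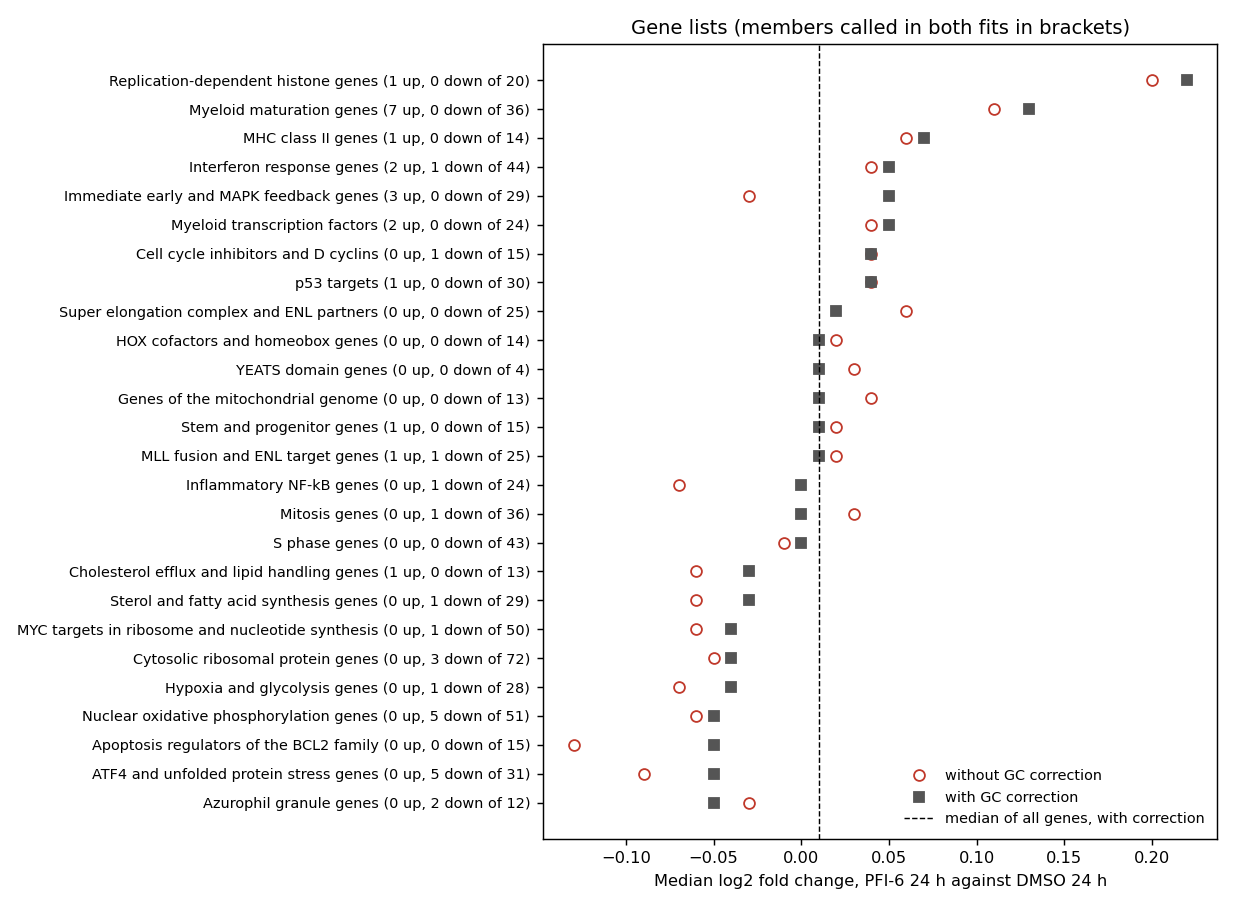
Median log2 fold change of PFI-6 24 h against DMSO 24 h for each gene list, without (open red circles) and with (grey squares) the GC correction; the dashed line is the corrected median of all genes tested, 0.01. Brackets give the members called in both fits; myeloid maturation genes have a corrected median of 0.13 and 7 of 36 members up.

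The time comparison asked whether the effect of PFI-6 at 24 h differed from its effect at 6 h, each against DMSO of the same time. At 6 h 296 genes were called in both fits (1.30%), 94 higher (0.414%) and 202 lower (0.889%). The difference between the times, tested as an interaction in edgeR, was called for 27 genes without the correction (0.119%), 48 with it (0.211%) and 24 in both fits (0.106%), 23 of them with a higher effect at 24 h (0.101%) and 1 with a lower one (0.00440%). Among the 24 were 3 of the 29 immediate early and MAPK feedback genes (JUN, KLF6 and DUSP6), 2 of the 36 myeloid maturation genes (CD36 and KLF4) and 3 of the 25 fusion and ENL targets. JUN measured 7.23, 9.73 and 11.3 CPM with PFI-6 at 6 h against 14, 11.9 and 13.9 CPM with DMSO, and 14, 13.9 and 14.4 CPM at 24 h against 8.51, 11.2 and 9.86 CPM (CPM without the GC correction). So the PFI-6 libraries were below the DMSO libraries at 6 h and above them at 24 h. The 6 h effect, -0.46, did not pass by itself (edgeR adjusted p = 0.13), and the effects differed by 1.07 ± 0.20 (SE; edgeR adjusted p = 0.032). The JUN call was kept in 4 of 12 fits with a library left out (0.90 to 1.23) and lost without PFI-6 24 h replicate 1, 2 or 3, DMSO 24 h replicate 1 or 3, PFI-6 6 h replicate 2 or DMSO 6 h replicate 1 or 3.

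CITED2, a transcriptional coregulator, showed the same turn. It measured 159, 168 and 165 CPM with PFI-6 at 6 h against 184, 188 and 187 CPM with DMSO, and 185, 189 and 192 CPM at 24 h against 156, 168 and 162 CPM. The effects, -0.17 at 6 h and 0.23 at 24 h, differed by 0.41 ± 0.04 (SE; edgeR adjusted p = 9.3e-10), and all 12 fits with a library left out kept the call. KLF4 (difference 0.90 ± 0.15, SE; edgeR adjusted p = 0.0037) and KLF6 (0.61 ± 0.10, SE; edgeR adjusted p = 0.0092) were also called lower at 6 h (-0.42 and -0.33) and higher at 24 h, and both differences were called in all 12 fits with a library left out. NR4A2, an orphan nuclear receptor of the immediate early class, differed by 0.75 ± 0.14 (SE; edgeR adjusted p = 0.0061) and lost that call without DMSO 24 h replicate 3 (0.67 to 0.82 over the 12 fits). It was lower at 6 h (-0.46, edgeR adjusted p = 0.0060), while at 24 h its 0.29 did not pass (edgeR adjusted p = 0.13). TSC22D3, a glucocorticoid-induced leucine zipper gene, differed by 0.54 ± 0.08 (SE; edgeR adjusted p = 0.0013), a call kept in all 12 fits with a library left out. The level under DMSO also differed between the times in some of these genes: KLF6 was at 68.3, 74.3 and 73.2 CPM at 6 h and 41.4, 51.3 and 48.1 CPM at 24 h.

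TNF went the other way. It measured 4.63, 4.49 and 4.79 CPM with PFI-6 at 6 h against 3.90, 4.23 and 4.21 CPM with DMSO, and 6.12, 5.18 and 5.63 CPM at 24 h against 9.18, 8.66 and 9.10 CPM. Both groups had higher levels at 24 h than at 6 h, the DMSO libraries at 8.66 CPM or more and the PFI-6 libraries between 5.18 and 6.12 CPM. The effects differed by -0.81 ± 0.13 (SE; edgeR adjusted p = 0.00071; called in all 12 fits). ANXA1 and CD36 had larger effects at 24 h than at 6 h, by 0.38 ± 0.07 (SE; edgeR adjusted p = 0.0061) and 0.21 ± 0.05 (SE; edgeR adjusted p = 0.043); the ANXA1 call was kept in all 12 and the CD36 call in 1 of 12 fits with a library left out, the one without PFI-6 6 h replicate 2 (0.19 to 0.24). Of the 25 fusion and ENL targets, JMJD1C differed by 0.15 ± 0.03 (SE; edgeR adjusted p = 0.010), a call lost without PFI-6 24 h replicate 2, DMSO 24 h replicate 3 or PFI-6 6 h replicate 1 (0.14 to 0.17). SATB1, a chromatin organiser, differed by 0.15 and ZEB2, a zinc finger repressor, by 0.16 (edgeR adjusted p = 0.0052 and 0.0089).

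For HOXA10, MYC and CDKN1B the difference between the times did not pass the test. HOXA10 had -0.25 ± 0.04 at 6 h and -0.16 ± 0.04 at 24 h (SE; difference 0.09, edgeR adjusted p = 0.76). MYC had -0.15 at 6 h (edgeR adjusted p = 0.00045) and -0.08 at 24 h (difference 0.07, edgeR adjusted p = 0.64), and CDKN1B had -0.16 at 6 h (edgeR adjusted p = 0.00089) and -0.01 at 24 h (difference 0.15, edgeR adjusted p = 0.12). Over the MLL fusion and ENL target list 6 of 25 members fell at 6 h (0.889% of all genes) and 1 fell at 24 h (0.568% of all genes), where 1 also rose; the difference between these counts was not tested. The corrected medians were -0.07 and 0.01.

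**Figure D4:**
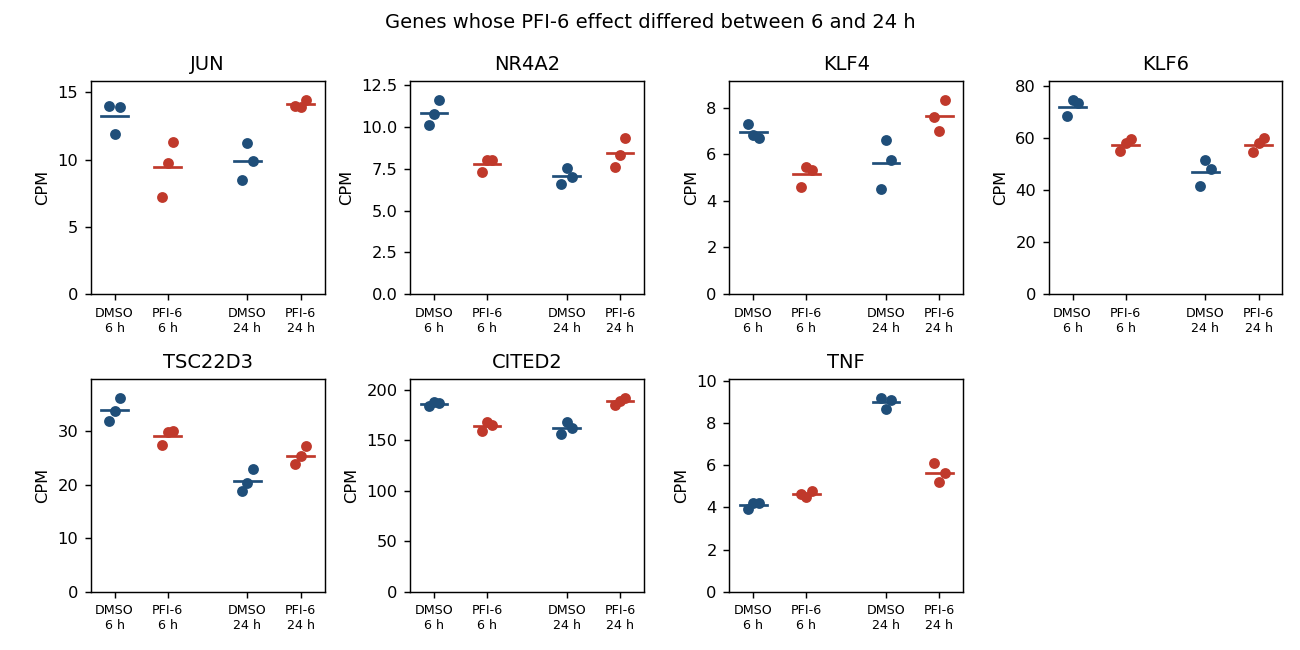
CPM, without GC correction, of 7 genes whose PFI-6 effect differed between 6 and 24 h. Points are single libraries (blue DMSO, red PFI-6, 3 per group) and bars are group means; in JUN, NR4A2, KLF4, KLF6, TSC22D3 and CITED2 the red mean is below the blue at 6 h and above it at 24 h, and in TNF the order is the other way round.

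MS41 at the same dose and time differed from PFI-6 over much of the transcriptome. Against MS41 24 h, 9599 genes differed without the correction (42.3%) and 9081 differed in both fits (40.0%), 4669 higher with PFI-6 (20.6%) and 4412 lower (19.4%). Of these 744 were higher and 1914 lower with PFI-6 by at least 1.5-fold. The effects of both compounds against DMSO use the same 3 DMSO libraries, so their values are only set side by side. CD36 had 0.27 with PFI-6 and 2.62 with MS41, BASP1 0.44 and 2.63, and ANXA1 0.35 and 2.42. CYBB (0.37 and 5.70), LSP1 (0.53 and 3.94), CD101 (0.35 and 3.18) and IPCEF1 (0.31 and 2.88) met the level required for ranking through libraries such as those of MS41, so their values only describe them. Tested directly, CD36 had a log2 difference, PFI-6 minus MS41, of -2.36 ± 0.03 (SE; edgeR adjusted p = 2e-45), with libraries at 38.6 to 39.9 CPM for PFI-6 after the GC correction and a mean of 201 CPM for MS41 before it. Of the 36 myeloid maturation genes 30 were lower with PFI-6 than with MS41 and none was higher, against 19.4% of all genes tested that were lower. The low-count filter used all 24 libraries, so members could count as measured through the MS41 libraries alone. Part of this count may therefore have been set by the filter, and it is no test of the list.

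Genes that MS41 lowered differed from PFI-6 in the other direction. CTSG had -0.20 with PFI-6 and -1.91 with MS41, HOXA10 -0.16 and -1.51, HOXA9 -0.07 and -1.50, INHBA -0.24 and -1.26, TRGV9 -0.30 and -1.17, CDKN1B -0.01 and -0.94, MYC -0.08 and -0.92, SLC7A5 -0.15 and -0.87, MEIS1 0.00 and -0.77, and MYB -0.02 and -0.60. The direct difference was 1.43 ± 0.04 for HOXA9 (SE; edgeR adjusted p = 1.5e-35) and 0.83 ± 0.03 for MYC (SE; edgeR adjusted p = 1.9e-31). Of the 25 MLL fusion and ENL target genes 21 were higher with PFI-6 than with MS41, as were 49 of the 50 MYC targets, against 20.6% of all genes tested. JUN and FOS were not part of this pattern. Their effects were 0.61 and 0.46 with PFI-6 and -0.47 and 0.01 with MS41, and PFI-6 was above MS41 by 1.08 ± 0.14 for JUN (SE; edgeR adjusted p = 4.4e-06) and 0.44 ± 0.09 for FOS (SE; edgeR adjusted p = 0.00053). RPS29 was below MS41 by 0.18 (± 0.05, SE; edgeR adjusted p = 0.012).

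PFI-6 and MS41N differed in few genes at 24 h. Without the correction 24 genes were called (0.106%), and 5 were called in both fits (0.0220%). These were CD36 (0.19 ± 0.03, SE; edgeR adjusted p = 0.015), CITED2 (0.15 ± 0.03, SE; edgeR adjusted p = 0.015) and the small nuclear RNA gene RNU1-4, of multicopy origin, higher with PFI-6, and HELB, a DNA helicase (-0.23 ± 0.04, SE; edgeR adjusted p = 0.015), and FBXL20, a ubiquitin ligase subunit (-0.16 ± 0.03, SE; edgeR adjusted p = 0.035), lower. RNU1-4 lay below the level required by the naming rule and is named after its value was seen. At most 1 of 6 fits with a library left out kept each of the calls of CD36, CITED2, HELB and FBXL20 (0.18 to 0.22, 0.13 to 0.17, -0.27 to -0.21 and -0.18 to -0.14); for FBXL20 none did. In those fits CD36 and CITED2 were called only without MS41N replicate 3 and HELB only without MS41N replicate 2. Counts at an unadjusted p below 0.05 were 2738 without and 1596 with the correction, and DESeq2 called 174 and 27.

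The absence of calls does not show that both compounds acted alike. For LSP1, MS41N had 0.26 against DMSO and PFI-6 0.53, with a direct difference of 0.26 (95% interval 0.12 to 0.41; edgeR adjusted p = 0.25). For CYBB the difference was 0.34 (0.14 to 0.54; edgeR adjusted p = 0.31), for BASP1 0.18 (0.04 to 0.33; edgeR adjusted p = 0.56), for JUN 0.28 (-0.01 to 0.57; edgeR adjusted p = 0.72) and for TRGV9 -0.29 (-0.42 to -0.16; edgeR adjusted p = 0.065). For HOXA9 it was -0.04 (-0.11 to 0.03), for MYC -0.05 (-0.10 to 0.00) and for SLC7A5 -0.04 (-0.09 to 0.01). Against DMSO, MS41N itself was called for 8 genes without the correction (0.0352%) and for none with it. The compounds were compared as 2 pairs, PFI-6 with MS41 and PFI-6 with MS41N, and p-values were adjusted over all genes within each pair. No further adjustment over the pairs was made.

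**Figure D5:**
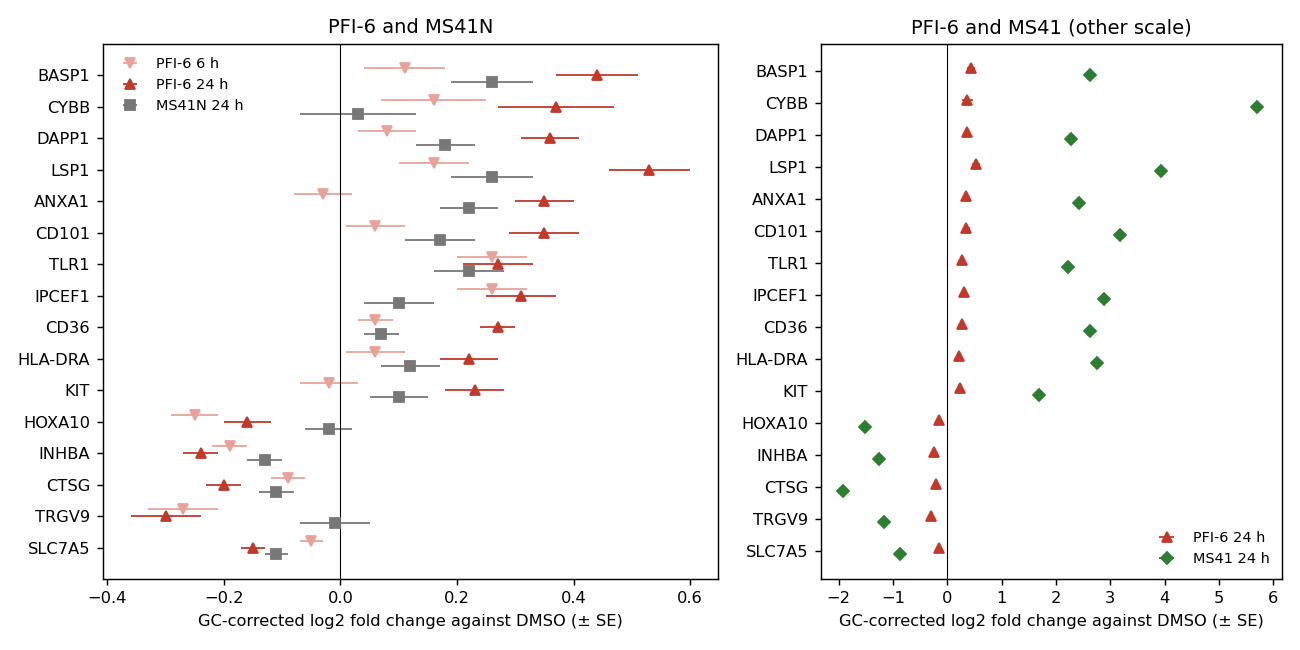
GC-corrected log2 fold changes (± SE) of 16 genes against DMSO of the same time. Left, PFI-6 at 6 h and 24 h and MS41N at 24 h; right, PFI-6 and MS41 at 24 h on a wider axis. PFI-6 values at 24 h lie between -0.30 and 0.53, and MS41 values between -1.91 and 5.70; all 24 h values share 3 DMSO libraries.

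The PFI-6 24 h libraries held 127447041 to 131272843 counted reads and the DMSO 24 h libraries 119910180 to 139812704, within a range of 102345811 to 156479711 for the 24 MV4;11 compound libraries. The biological coefficient of variation was 4.77%, and 4.31% after the GC correction, with 16 residual degrees of freedom. Replicate libraries of these groups differed by chi-square values of 4.27 to 17.7 per degree of freedom, more than counting noise, so none was a copy of another. Of 12 markers of MV4;11 as myeloid leukaemia cells, 11 reached 1 CPM in at least 1 of the 6 libraries, and CD68 stayed between 0.0405 and 0.165 CPM. Below 1 CPM in all 6 libraries were 7 of 8 B cell markers, 8 of 10 T and NK cell markers, 9 of 11 erythroid and megakaryocyte markers and 9 of 10 stromal and endothelial markers.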

How the data were processed

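The authors deposited 1 table of gene counts for the MV4;11 libraries, made per the submitters' processing notes with CASAVA 1.8, HISAT2 2.1.0, HTSeq 0.11.3 and the hg38 build; aligner settings and strand setting are not given in the sources used here, so antisense and overlapping genes are uncertain. The deposited counts were whole numbers and held 0 blank or summary rows. All 24 MV4;11 compound libraries (8 groups of 3) were fitted together in edgeR 4.0.16 (R 4.3.3, limma 3.58.1) with its default low-count filter, TMM scaling, the robust quasi-likelihood test and Benjamini-Hochberg adjustment (threshold 0.05). Standard errors are the log2 fold change over the root of the test statistic; 95% intervals use 16 degrees of freedom. GC content came from GENCODE 29 transcripts. For the GC correction, log2(CPM + 0.5) minus its mean over the libraries was smoothed against GC in each library (lowess, span 0.3, 3 iterations) for genes of mean log2 CPM of at least 1, and the trend entered the fit as offsets.

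Genes named first were called with the same sign in both fits, had an average log2 CPM of at least 3, did not overlap between groups, and ranked among the first 15 in each direction by the smaller absolute change; the first 6 of each other comparison, a fixed set of ENL and MLL genes and up to 5 called members of each gene list were added. The members and lists were chosen with earlier results of these data known. Alternatives were RLE scaling, DESeq2 1.42.0, no filter, only the groups compared, other GC corrections, a replicate block and each library left out. The test was also run on simulated data, with planted changes well above the median change found here and none in genes of low level. That run does not show how the test performs for the small changes described. Tables and figures used Python 3.11.15, pandas 2.3.3 and matplotlib 3.10.9. Some genes that met these rules are not reported here.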

Additional observations from a re-analysis of the deposited data

Results flagged for a closer look

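For 10 of the genes named, the effect of PFI-6 at 24 h differed from that at 6 h in the edgeR interaction test, with and without the GC correction. The difference (24 h minus 6 h, log2, GC-corrected, 3 libraries in each of 4 groups) was 1.07 for JUN, 0.90 for KLF4, 0.75 for NR4A2, 0.61 for KLF6, 0.54 for TSC22D3, 0.41 for CITED2, 0.38 for ANXA1, 0.21 for CD36, 0.15 for JMJD1C and -0.81 for TNF. Adjusted p-values and the effect of leaving out each library are given with the time comparison above. The DMSO 6 h and 24 h libraries were separate groups, so each difference also carries the change of the DMSO level between the times.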

How the results depend on the processing

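The 2806 genes called for PFI-6 against DMSO at 24 h became 457 with the GC correction, 574 when the correction also removed the level difference, 410 with GC and length, 466 with a replicate block and GC, and 1381 to 2458 with 1 library left out (1381 without DMSO replicate 3, 1516 without PFI-6 replicate 2, 1869 without PFI-6 replicate 1). The share higher was 45.1%, against 64.6% with the GC correction and 51.0% with the level removed. The 354 genes called in both fits became 563 with DESeq2 (332 shared), 573 with only the groups compared (334 shared), and 147 to 225 with a library left out. The 27 genes of the time comparison became 194 with DESeq2, 200 without a filter, 95 with only the groups compared, 48 with GC, 46 with the level removed, 64 with GC and length, 55 with a replicate block, 59 with block and GC, and 7 to 65 with a library left out (7 without DMSO 24 h replicate 3, 65 without DMSO 6 h replicate 1). The 9599 genes against MS41 stayed between 8834 and 9920 under all alternatives run. The 24 genes against MS41N became 174 with DESeq2, 189 without a filter, 162 with only the groups compared, 5 with GC and with GC and length, 11 with the level removed and with block and GC, and 0 to 18 with a library left out (0 without MS41N replicate 1). The cause of these shifts was not tested, except that leaving out a library means fewer samples.

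Same-numbered PFI-6 and DMSO 24 h libraries correlated at 0.02, 0.19 and 0.28. Libraries of different numbers were not correlated, so these values cannot decide whether the numbers mark pairs. The main fit did not take them as pairs. The replicate block gave 2804 genes for PFI-6 against DMSO, 364 in both fits, 9580 against MS41 and 26 against MS41N. Signs turned for 7 genes not called in both fits: MLLT1, called at -0.16 without the correction, to 0.02 with GC, GC and length, and block and GC, and 0.01 with the level removed; MYB to -0.02 with each GC correction and 0.00 without DMSO replicate 3; YEATS4 to -0.01 with GC and block and GC and -0.02 with the level removed; MEIS1 to 0.00 with the level removed and -0.02 with GC and length; MLLT3 to 0.00 with GC and length, -0.01 with block and GC, -0.23 without PFI-6 replicate 1 and -0.02 without DMSO replicate 3 (-0.23 to 0.21 with a library left out); CDKN1B to 0.00 without a filter or DMSO replicate 1 and 0.01 without PFI-6 replicate 2; FBXL20 to 0.02 without DMSO replicate 3 (-0.05 to 0.02). The part of depth in the errors of genes near 1 CPM was not tested.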
